A study of Homo sapiens with 4 samples.

Results

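TMSB10 encodes thymosin beta-10, a small peptide that holds actin monomers, and its mRNA was followed here in MHCC97H hepatocellular carcinoma (HCC) cells with and without UBXN1 knockdown, together with 9 genes of actin and of proteins that bind it. TMSB10 was picked because its level fell far between the groups, so its values chose it and are described without a test. The other 9 genes, TMSB4X, ACTB, ACTG1, PFN1, CFL1, GSN, TAGLN, TAGLN2 and TPM1, were listed for their role in actin biology. All 10 were found among the 61541 genes of the count table, and all 10 passed the filter on low counts.

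RNA was sequenced from 4 libraries of MHCC97H, an established human HCC cell line. The 2 control libraries (shCon, whose genotype is labelled control) carried a control short hairpin RNA, which the study's methods call shRFP, and the 2 knockdown libraries (shUBXN1) carried a hairpin against UBXN1, a UBX domain protein that binds ubiquitin. The methods place hairpins in the pLKO.1 vector, and which of the designed UBXN1 hairpins was sequenced is not given in the sources used here. The labels number the replicates but do not say whether they came from separate cultures, so p-values measure the spread between these libraries only. Each library held between 23373700 and 27380508 counts, and the correlation of log2 levels was 0.989 and 0.988 within the groups and 0.945 to 0.948 across them.

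UBXN1 itself was at 67.1 and 77.3 CPM (counts scaled to a common library size and composition) in shCon and at 16.8 and 18.5 CPM in shUBXN1, or 24.4% of the control mean (log2 fold change -2.03 ± 0.0963, SE, n = 2; adjusted p = 9.98e-10 in edgeR's quasi-likelihood test). Of 13 hepatocyte markers, 12 passed the filter and APOA2 had at most 1 count. The summed level of the 13 was 251 to 260 CPM in shCon and 114 to 119 CPM in shUBXN1. TF supplied much of the difference, at 103 and 92.4 CPM in shCon and 25.6 and 24.4 CPM in shUBXN1. ALB, APOB, APOH, TTR, FGA, FGB, FGG and TF were each lower at an adjusted p under 0.05 in edgeR's quasi-likelihood test. Their log2 fold changes ran from -0.99 (APOH) to -4.02 (FGB). HNF4A was also lower by that test, at 81.4% of its control mean (adjusted p = 0.00537). AFP and APOA1 did not pass an adjusted p of 0.05. SERPINA1 went against that sum, with a log2 fold change of 0.40 (adjusted p = 0.0271, edgeR's quasi-likelihood test). Of the 3 leukocyte markers PTPRC and CD3E were at or near 0, while CD68, a lysosomal protein of macrophages, was at 82.4 and 88.3 CPM in shCon and 72.9 and 70.5 CPM in shUBXN1. The 3 endothelial markers summed to 33.8 and 34.1 CPM in shCon and 44.4 and 42.9 CPM in shUBXN1, nearly all from PECAM1, with CDH5 at 6 counts or fewer. Summed over the 6 fibroblast and muscle markers the level was 33.4 and 34.3 CPM in shCon and 17.7 and 20.1 CPM in shUBXN1, most of it from LUM, with DES at 4 counts or fewer. COL1A1 of the same list was at 0.375 and 0.170 CPM in shCon and at 2.34 and 2.52 CPM in shUBXN1. In bulk RNA, fewer cells of a kind and less RNA per cell cannot be told apart, and the part of these shifts in the results below was not tested.

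Actin cycles between free monomers and filaments. Beta-thymosins such as thymosin beta-10 and thymosin beta-4 sequester monomers, profilin delivers monomers to growing filament ends, and cofilin takes old filaments apart. Gelsolin cuts and caps filaments, while transgelins and tropomyosins bind along their sides. Free monomers also bind the MRTF cofactors of the transcription factor SRF and hold them back, so the monomer pool is tied to the transcription of actin genes. SRF binds a short A/T-rich sequence called the CArG box.

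Sequences upstream of the starts of the beta-thymosin genes and of ACTG1 are shown because the pair of thymosin genes differed in direction and because the CArG box bears on actin genes. In RefSeq (GRCh38.p14), 8 of the 10 genes, all but ACTB and TAGLN, had promoter entries, 15 in all. The 250 bases before the start are given 5′ to 3′ in the direction of the gene. TMSB10 is chr2:84905406-84905655 on the plus strand, TMSB4X is chrX:12974860-12975109 on the plus strand and ACTG1 is chr17:81512800-81513049 on the minus strand. Capitals mark TATAA in TMSB10 and the CArG box in ACTG1.
TMSB10: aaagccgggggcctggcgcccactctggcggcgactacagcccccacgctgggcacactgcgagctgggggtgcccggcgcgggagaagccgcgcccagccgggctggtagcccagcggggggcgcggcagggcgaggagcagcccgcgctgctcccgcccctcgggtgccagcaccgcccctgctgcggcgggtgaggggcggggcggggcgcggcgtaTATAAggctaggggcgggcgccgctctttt
TMSB4X: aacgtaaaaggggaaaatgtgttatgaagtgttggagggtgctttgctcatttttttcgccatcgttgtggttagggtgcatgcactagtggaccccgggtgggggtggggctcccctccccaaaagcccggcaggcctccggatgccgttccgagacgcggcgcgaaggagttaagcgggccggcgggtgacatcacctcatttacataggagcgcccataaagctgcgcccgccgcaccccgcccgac
ACTG1: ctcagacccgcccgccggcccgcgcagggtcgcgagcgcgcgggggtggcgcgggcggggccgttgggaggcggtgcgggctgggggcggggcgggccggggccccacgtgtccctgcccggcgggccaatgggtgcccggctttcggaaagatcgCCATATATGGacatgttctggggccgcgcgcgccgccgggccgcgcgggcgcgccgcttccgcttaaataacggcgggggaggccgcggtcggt
TATAA began 30 bases before the TMSB10 start, at position -30, and the CArG box of ACTG1 began at position -94. Searched on both strands in 35116 promoters of this length, TATAA was present in 18.9%, the CArG box in 1.16% and the GC box GGGCGG in 42.6%. The TMSB10 window held 5 GC boxes and was 78.0% G and C, against a median of 58.0% over all promoters, and the letters of the CArG box were not in it. The TMSB4X window held 1 GC box, was 60.8% G and C, and had neither TATAA nor a CArG box. Among these 15 windows, which include none of ACTB or TAGLN, the CArG box was present in ACTG1 alone. Each match is a description of letters, not of a bound site.

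TMSB10 (ENSG00000034510) lies on the plus strand of chromosome 2 from 84905656 to 84906671 in hg38. Its level was 728 and 772 CPM in shCon and 59.0 and 61.6 CPM in shUBXN1. The groups were far apart and replicates were close, with means of 750 ± 31.1 CPM (SD, n = 2) and 60.3 ± 1.87 CPM (SD, n = 2). The shUBXN1 mean was 8.05% of the control mean, a 12.4-fold lower level and a log2 fold change of -3.64. In raw counts this was 19399 and 18127 against 1460 and 1443. On the TPM scale, which also divides by gene length, TMSB10 ranked 27th and 26th of 19967 protein-coding genes in shCon and 444th and 451st in shUBXN1. It remained well expressed after knockdown, far above the count filter.

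Ordered by log2 fold change, TMSB10 was number 39 from the lowest among all 16863 genes tested, and number 5 among the 11867 genes with a mean log2 CPM above 2. The 5 genes whose mean-centred log2 profile over the 4 libraries was most like that of TMSB10 were C4BPA, SSX1, GRAMD1B, GLIPR1 and TMEM154, at root mean square differences of 0.0797, 0.146, 0.225, 0.255 and 0.272. All were less abundant than TMSB10, with control means of 33.6, 24.1, 71.0, 33.5 and 19.7 CPM. C4BPA, which encodes the alpha chain of a complement inhibitor, went from 33.2 and 34.1 CPM to 2.95 and 2.86 CPM. With 4 libraries in 2 groups, likeness here is mostly a fall of similar size.

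Genes near TMSB10 did not share a fall of this size. Of 8 other tested genes with any part within 500000 bases of it, 2 were lower, 3 were higher and 0 passed a fold of 2, with a median log2 fold change of 0.18. These counts are near the shares over all tested genes, of which 28.2% were lower and 28.0% higher at an adjusted p under 0.05. At a fold of 2, 6.09% of all tested genes were lower and 11.8% higher. In the exons of TMSB10, 1.95% of bases were shared with TRABD2A on the opposite strand, which had at most 12 counts in any library. Reads placed on the 2 annotated TMSB10 pseudogenes came to at most 0.00563% of those on TMSB10. The designed UBXN1 hairpin targets shared runs of at most 8 bases with TMSB10 transcripts, against 21 in UBXN1. The bases that pair with the hairpin seed were in TMSB10 transcripts for shUBXN1-2 only, a match that 32.2% of tested genes had.

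**Figure D1:**
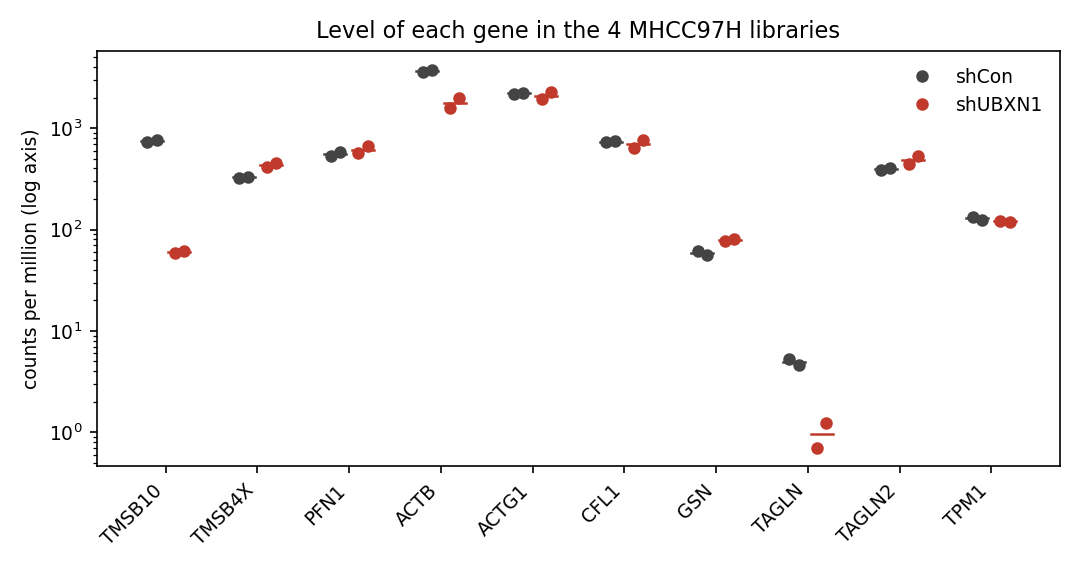
Level of the 10 genes in each library, in CPM on a log axis, with shCon in grey, shUBXN1 in red and a short line at each group mean. TMSB10 drops from 728 and 772 CPM to 59.0 and 61.6 CPM, while its relative TMSB4X moves up from 325 and 333 CPM to 417 and 455 CPM.

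Among the 9 other genes, ACTB and TAGLN fell, TMSB4X, GSN and TAGLN2 rose, and PFN1, ACTG1, CFL1 and TPM1 did not pass the test. A gene was called at an adjusted p under 0.05 in edgeR's quasi-likelihood test (Benjamini-Hochberg, over all genes tested). By that rule 2 of 9 were lower and 3 of 9 higher, where 28.2% of all tested genes were lower and 28.0% higher. At a fold of 2 and an unadjusted p under 0.05, 2 of 9 were lower and 0 higher, where the shares over all genes were 6.09% and 11.8%. Without shUBXN1 replicate 2, 4 of the 9 were called lower, as were 5104 of the 17780 genes tested there. Without shUBXN1 replicate 1 only TAGLN passed the fold of 2. In 6 of the 9 the groups did not overlap, as in 78.0% of all tested genes. The median log2 fold change of the 9 was -0.07 and that of all tested genes was 0.02, and the 9 genes spread from -2.36 (TAGLN) to 0.44 (GSN).

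**Figure D2:**
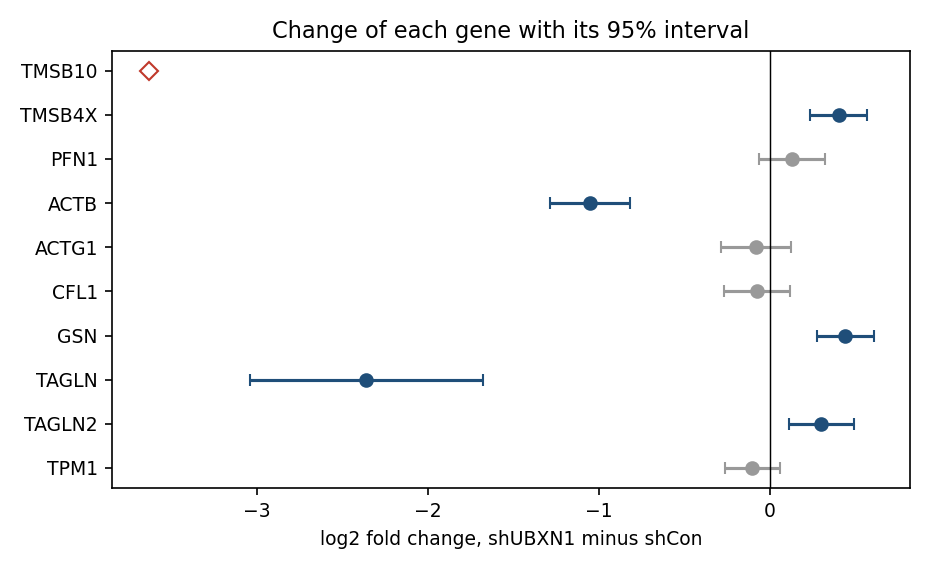
Log2 fold change of each gene, shUBXN1 minus shCon, with its 95% interval from the edgeR fit (blue, adjusted p under 0.05; grey, not called; TMSB10 as an open diamond without interval, since it was picked on this value). ACTB at -1.05 and TAGLN at -2.36 lie to the left, and TMSB4X, GSN and TAGLN2 lie between 0.30 and 0.44.

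TMSB4X encodes thymosin beta-4, the major monomer-sequestering peptide of many cells and a close relative of thymosin beta-10. It lies on chromosome X from 12975110 to 12977227, plus strand. TMSB4X was at 325 and 333 CPM in shCon and at 417 and 455 CPM in shUBXN1. Both knockdown libraries were above both controls, with a log2 fold change of 0.41 ± 0.0775 (SE, n = 2) and an adjusted p of 0.000475 in edgeR's quasi-likelihood test. The rise was 1.32-fold, and reads on the 6 TMSB4X pseudogenes were at most 0.113% of those on the gene.

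Per length, TMSB10 was 3.02 and 3.12 times as abundant as TMSB4X in shCon, and 0.191 and 0.183 times in shUBXN1. The order of the pair was thus reversed. Summed TPM of the pair went from 4277 and 4365 to 1733 and 1740, lower in both knockdown libraries although TMSB4X was higher in them. TMSB10 made up 75.1% and 75.8% of the sum in shCon and 16.0% and 15.5% in shUBXN1.

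PFN1, profilin-1, promotes filament growth by carrying monomers to filament ends. Its level was 533 and 584 CPM in shCon and 566 and 660 CPM in shUBXN1. The groups overlapped, and the log2 fold change of 0.13 had a 95% interval of -0.06 to 0.33 (adjusted p = 0.223, edgeR's quasi-likelihood test). Scaling by total counts gave 0.22 and a call (adjusted p = 0.0218 in edgeR's quasi-likelihood test), limma on log2(TPM + 1) gave 0.19 and a call (adjusted p = 0.0374), and leaving out shUBXN1 replicate 1 gave 0.24 and a call (adjusted p = 0.000891). Of the exon bases of PFN1, 6.94% were shared with ENO3 on the opposite strand, which rose with a log2 fold change of 2.84 but held at most 332 counts beside at least 13723 of PFN1.

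ACTB and ACTG1 encode the cytoplasmic beta- and gamma-actins, nearly identical proteins made from separate genes. ACTB, on the minus strand of chromosome 7 from 5526409 to 5563902, was at 3595 and 3777 CPM in shCon and at 1584 and 1970 CPM in shUBXN1. Both knockdown libraries were far below both controls, at 48.2% of the control mean. The log2 fold change was -1.05 ± 0.109 (SE, n = 2), with an adjusted p of 1.58e-06 in edgeR's quasi-likelihood test. ACTB remained past the adjusted p in all 13 alternative settings, but sat near the fold of 2, and its log2 fold change was -0.97 with total count scaling and -0.91 without shUBXN1 replicate 1.

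ACTG1 was at 2174 and 2240 CPM in shCon and at 1937 and 2248 CPM in shUBXN1. The knockdown libraries lay on either side of the controls. Its log2 fold change was -0.08 with a 95% interval of -0.28 to 0.13 (adjusted p = 0.518, edgeR's quasi-likelihood test), and without shUBXN1 replicate 2 it became -0.20 and was called lower (adjusted p = 0.00233). ACTG1 is the gene with the CArG box at position -94 shown above.

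Per length, ACTB was 1.85 and 1.88 times as abundant as ACTG1 in shCon and 0.913 and 0.978 times in shUBXN1. Summed over both genes the level was 5582 and 5653 TPM in shCon and 3560 and 3967 TPM in shUBXN1. ACTB made up 64.9% and 65.3% of the pair in shCon and 47.7% and 49.4% in shUBXN1, so the 2 actin mRNAs were close to equal after knockdown. Both genes have many processed copies, 12 for ACTB and 19 for ACTG1, and reads placed on those were at most 0.0383% and 0.128% of the parent.

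**Figure D3:**
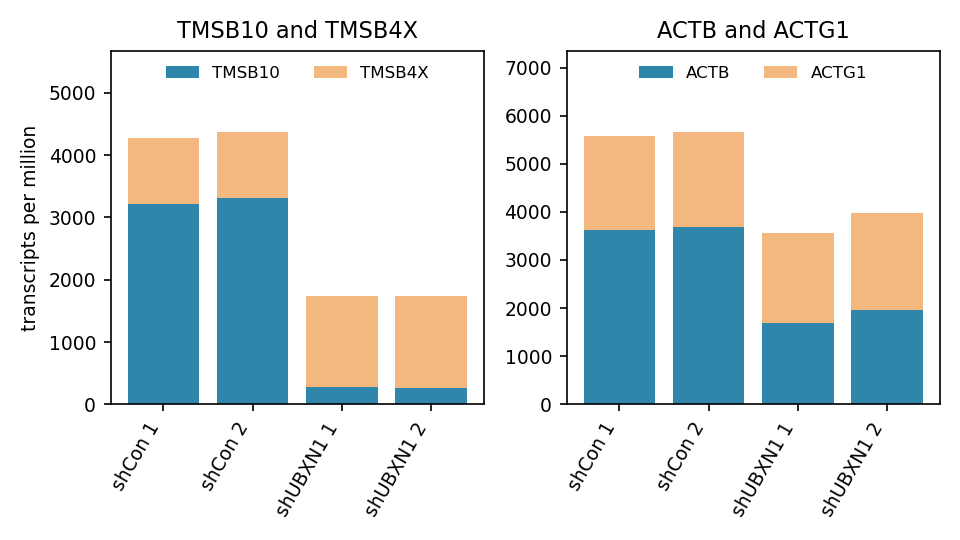
Stacked levels in TPM of the 2 beta-thymosin mRNAs (left) and the 2 cytoplasmic actin mRNAs (right) in each library. The blue share (TMSB10, ACTB) shrinks from 75.1% and 75.8% to 16.0% and 15.5% on the left and from 64.9% and 65.3% to 47.7% and 49.4% on the right.

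CFL1, cofilin-1, severs and depolymerizes old filaments. It was at 731 and 745 CPM in shCon and at 644 and 760 CPM in shUBXN1. The groups overlapped, with a log2 fold change of -0.07 and a 95% interval of -0.27 to 0.12 (adjusted p = 0.515, edgeR's quasi-likelihood test). Without shUBXN1 replicate 2 it was -0.21 and called lower (adjusted p = 0.0024). For PFN1, ACTG1 and CFL1 alike, shUBXN1 replicate 1 was the lower of the knockdown libraries.

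GSN, gelsolin, cuts filaments and caps their growing ends. It lies on chromosome 9 from 121207794 to 121332843, plus strand, and was at 61.0 and 55.7 CPM in shCon and at 77.7 and 81.0 CPM in shUBXN1. Both knockdown libraries were above both controls. The log2 fold change was 0.44 ± 0.0777 (SE, n = 2), with an adjusted p of 0.000234 in edgeR's quasi-likelihood test, and the call was kept in all 13 alternative settings.

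TAGLN, transgelin, also known as SM22, binds along filaments and is a classical smooth muscle gene and SRF target. It lies on chromosome 11 from 117199370 to 117207464, plus strand, and was the rarest of the 10 genes. It had 141.25 and 108.45 counts in the controls and 17.48 and 28.78 after knockdown, or 5.30 and 4.62 CPM against 0.706 and 1.23 CPM. The groups did not overlap, and the log2 fold change was -2.36 ± 0.318 (SE, n = 2) with an adjusted p of 2.13e-05 in edgeR's quasi-likelihood test. Other genes cover part of its exons: 34.1% of the bases were shared with PCSK7 on the opposite strand (log2 fold change -0.31) and 38.1% with ENSG00000280143 on the same strand (0.46, not called). With so few counts and such overlap, the size of the TAGLN change is uncertain.

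TAGLN2, transgelin-2, is the more widely expressed form. It was at 383 and 405 CPM in shCon and at 445 and 527 CPM in shUBXN1. All knockdown values were above the controls, with a log2 fold change of 0.30 ± 0.0886 (SE, n = 2) and an adjusted p of 0.00967 in edgeR's quasi-likelihood test. The call was lost without shCon replicate 1 (0.26, adjusted p = 0.0868) and without shCon replicate 2 (0.33, adjusted p = 0.113). Per length, TAGLN2 was 66.7 and 80.9 times as abundant as TAGLN in shCon and 581 and 395 times in shUBXN1.

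TPM1, a tropomyosin that runs along filaments, was at 134 and 123 CPM in shCon and at 121 and 119 CPM in shUBXN1. The knockdown libraries were just below the controls, but the log2 fold change of -0.10 had a 95% interval of -0.26 to 0.06 (adjusted p = 0.269, edgeR's quasi-likelihood test). TPM1-AS, on the other strand, shared 18.0% of its exon bases and held at most 42.57 counts.

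By mean TPM in shCon the order from high to low was ACTB, TMSB10, PFN1, ACTG1, CFL1, TMSB4X, TAGLN2, TPM1, GSN and TAGLN. Among neighbours in this order only ACTG1 and CFL1, at 1962 ± 0.0804 and 1953 ± 14.7 TPM (SD, n = 2), had overlapping libraries. In shUBXN1 the order was PFN1, ACTG1, CFL1, ACTB, TMSB4X, TAGLN2, TMSB10, TPM1, GSN and TAGLN. There ACTG1 overlapped CFL1 and CFL1 overlapped ACTB, so the order of these was not resolved. TMSB10 moved from the second place to the seventh, at 273 ± 5.90 TPM (SD, n = 2), below TAGLN2 at 632 ± 41.8 TPM and above TPM1 at 139 ± 8.96 TPM.

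A list of 126 other actin regulators in 15 groups by function set these genes among their partners. Of the 110 that passed the filter, 47 were lower (42.7%), 27 were higher (24.5%) and 36 were not called, with a median log2 fold change of -0.12. Over all tested genes 28.2% were lower and 28.0% higher, with a median of 0.02. Many regulators are abundant, and among all 6158 genes with a mean log2 CPM above 5 the share lower was 42.2% and the share higher 26.0%, with a median of -0.10. Of the 78 list genes in that range, 40 were lower and 16 higher, with a median of -0.19. With total count scaling the list split into 37 lower and 40 higher, where all genes split into 3969 and 5324. With limma on log2(TPM + 1) it split into 41 and 35, where all genes split into 3998 and 4742. The balance of lower to higher calls thus moved with the scaling, in the list and over all genes. Without shCon replicate 2, the list genes called lower and higher numbered 32 and 16, where all genes split into 3746 and 3607. In the following sentences, lower and higher refer to the adjusted p in edgeR's quasi-likelihood test. The shares above, over all tested genes and over abundant genes, stand beside each group count as well. A group whose counts are near them is not set apart from other genes.

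Of 6 tested monomer binding proteins other than the members, 2 were lower, 1 was higher and 3 were not called. Without shCon replicate 2, 0 were lower and 0 higher. CAP1, which recycles monomers, had a log2 fold change of -0.32 and TWF2, twinfilin-2, of 0.33, and the call of TWF2 was also lost with the GC trend removed (0.17). In the cofilin family and its regulators 7 of 14 were lower and 3 higher, with 6 and 0 without shCon replicate 2 and 6 and 5 with total count scaling. LIMK1, the kinase that turns cofilin off, went from 58.1 and 58.5 CPM to 32.6 and 35.4 CPM (log2 fold change -0.78), and SSH1, a phosphatase that turns it on, from 126 and 121 CPM to 167 and 153 CPM (0.37, a call lost without shCon replicate 2). DSTN, a relative of CFL1 that also takes filaments apart, was lower at -0.47.

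Relatives of gelsolin did not follow GSN: of 7 tested, 4 were lower and 1, AVIL, higher. VIL1, villin, a bundler of microvilli, was at 67.3 and 64.5 CPM in shCon and at 19.1 and 22.6 CPM in shUBXN1, a log2 fold change of -1.66. USP37, which shares 44.2% of its exon bases on the opposite strand, was slightly higher at 0.31. AVIL, advillin, was higher at 1.62 but at no more than 1.66 CPM in any library, and lost its call in 5 of 12 settings.

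Of 7 tested tropomyosins and tropomodulins other than TPM1, 3 were lower, 2 were higher and 2 were not called. The 3 tropomyosins among them were all lower. TPM3 had a log2 fold change of -0.96, TPM4 went from 589 and 591 CPM to 306 and 331 CPM (-0.89), and TPM2 was just past the threshold at -0.18, a call lost in 5 of 13 settings. Of the tropomodulins, which cap slow-growing ends, TMOD3 was higher at 0.40. TMOD2 was higher at 2.49, from at most 0.788 CPM in shCon to 3.40 and 3.08 CPM. TMOD1 at -0.12 and LMOD1 at -0.30 were not called. Of the 2 calponins tested, CNN2 was lower at -0.21, a call lost in 4 of 13 settings, and CNN3 was not called at -0.08.

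The Arp2/3 complex, which starts branched filaments, was lower in 8 of 9 tested subunits and higher in 0, with a median log2 fold change of -0.30. ARPC1A was at 350 and 361 CPM in shCon and at 115 and 130 CPM in shUBXN1 (log2 fold change -1.54), and ARPC1B at 777 and 793 CPM against 376 and 381 CPM (-1.05). ARPC2 was not called, at -0.15, except without shUBXN1 replicate 2. ARPC1A shares 58.6% and ARPC1B 23.2% of exon bases with the same-strand readthrough gene ENSG00000284292, and the CPM of these 3 summed to 1189 and 1231 in shCon and 534 and 565 in shUBXN1. Under total count scaling 6 of the 9 subunits were lower, and without shCon replicate 2 the number was 4, while 0 were higher in any of the 13 alternative settings.

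Activators of the Arp2/3 complex went the other way in number, with 8 of 13 higher and 4 lower, although without shCon replicate 1 these were 5 and 3 and without shCon replicate 2 they were 4 and 2. WASF1, also called WAVE1, was lower at -0.76, and JMY, which also nucleates filaments by itself, went from 13.7 and 12.9 CPM to 24.7 and 23.8 CPM (log2 fold change 0.86). Of the formins and spires, which start unbranched filaments, 7 of 14 were higher and 3 lower, the latter count being 1 with total count scaling, on log2(TPM + 1) and without shCon replicate 2. INF2 went from 160 and 162 CPM to 88.4 and 87.4 CPM (-0.87), FMNL2 was higher at 0.59, and FHOD3 rose from 0.715 and 0.545 CPM to 4.87 and 5.30 CPM (2.99). The rise of FHOD3, the largest of these, was from a low level.

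Among bundling proteins 4 of 8 were lower and 1 higher, and 3 were higher with total count scaling, on log2(TPM + 1) and without shUBXN1 replicate 1. PALLD, palladin, went from 208 and 214 CPM to 96.5 and 106 CPM (log2 fold change -1.06), and FSCN1, fascin, was higher at 0.31, a call lost without shCon replicate 2 and with the GC trend removed. Of the ERM proteins, which tie filaments to the membrane, EZR and RDX were lower at -0.51 and -0.62 and MSN was not called except without shUBXN1 replicate 2. Of 8 tested genes grouped under barbed end capping, 2 were lower, 1 was higher and 5 were not called. ADD3 was lower at -0.48 and CAPZA1 at -0.46, the latter from 140 and 139 CPM to 95.8 and 108 CPM. CARMIL2 was higher, from 0 and 4 counts in shCon to 16 and 25 counts in shUBXN1, a call lost without shCon replicate 1.

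Nonmuscle myosin II genes were lower in 0 of 7 and higher in 2, MYH10 at 0.60 and MYL6 at 0.40, and 4 were higher with total count scaling, on log2(TPM + 1) and without shUBXN1 replicate 1. None of the 5 further actin genes of the list passed the filter.

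SRF and both MRTF cofactors, which read the monomer pool, were all lower. SRF went from 40.7 and 42.7 CPM to 19.9 and 21.2 CPM, a log2 fold change of -1.02 ± 0.0902 (SE, n = 2) and an adjusted p of 3.42e-07 in edgeR's quasi-likelihood test. MRTFA was at -0.76 and MRTFB at -0.43, and all 3 remained lower in each of the 13 alternative settings. These are mRNA levels, and SRF activity was not measured.

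**Figure D4:**
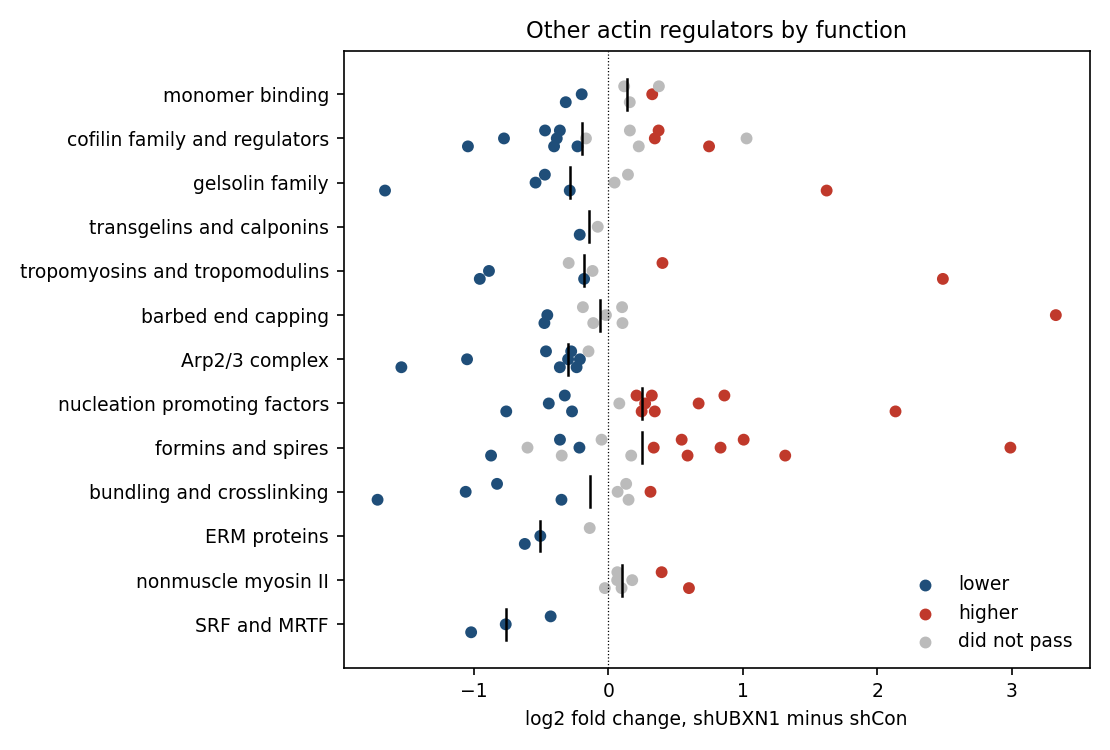
Log2 fold change, shUBXN1 minus shCon, of 101 of the 110 tested regulators by function, in the groups described here (blue, lower; red, higher; grey, not called; black line, group median). All 9 Arp2/3 subunits and all 3 of SRF and MRTF lie left of 0, while formins and Arp2/3 activators have medians of 0.25; the far right point of the capping row, CARMIL2, rests on at most 25 counts.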

How the data were processed

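RNA-seq was made from 4 MHCC97H libraries, 2 shCon and 2 shUBXN1. The authors deposited expected counts per gene with a gene length, not normalized. Per the submitters' processing notes HISAT2 2.0.4 and StringTie 1.3.0 were used with GRCh37, whereas the paper's methods give GRCh38; the labels name a VAHTS mRNA-seq kit and the methods a TruSeq kit. The counting program, annotation and use of strand are not given in the sources used here, so overlapping genes are uncertain. Between 63.6% and 65.7% of values above 0 were whole.

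Counts were rounded, filtered with filterByExpr, scaled by TMM and tested with glmQLFTest in edgeR 4.0.16 (R 4.3.3), without a block, over all 16863 genes kept. Each SE came from the fold change and its F statistic (absolute log2 value over the root of F). The methods name TPM for levels and limma for tests; limma on log2(TPM + 1) was an alternative here. TPM was computed from counts and the deposited length. Of 61541 IDs, 61369 matched GENCODE v44 (hg38), which gave symbols and positions. The test was also run on counts simulated with the same spread for every gene, which does not measure its error rates in these data. Members, lists and rules were chosen with earlier results of these data known. Named genes are UBXN1, the members, per list group the lowest-p gene in each direction among those called, and the 5 genes most like TMSB10. A group of the list counts in its totals but is not reported here. DSTN, TPM2, TPM3, TMOD3, ARPC1B, ARPC2, FMNL2, EZR, MSN, MYL6, MRTFA and MRTFB were named after their values were seen. The same holds for TMOD1, LMOD1, CAPZA1 and CNN3, whose values are given from the main fit only.

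Alternatives, 13 in all, were DESeq2 size factors, total count scaling, DESeq2 1.42.0, limma-voom and limma 3.58.1 on log2(TPM + 1), no filter, at least 10 counts in every library, a replicate block, removal of a GC trend, and leaving out each library.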

Additional observations from a re-analysis of the deposited data

How the results depend on the processing

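No called log2 fold change among UBXN1, TMSB10 and 44 other genes of the members and the list changed sign under the 13 alternatives. TMSB10 was at -3.55 with total count scaling and -3.57 on log2(TPM + 1), and between -3.68 and -3.61 without single libraries. Members past a fold of 2 numbered 1 in place of 2 with total count scaling, and 1 to 2 without single libraries, where ACTB was the member lost. Members called lower ranged from 2 to 4 without single libraries, 4 without shUBXN1 replicate 2. List genes called higher numbered 27, and from 16 (without shCon replicate 2) to 35 (without shUBXN1 replicate 1) when single libraries were left out. Over all genes, those called higher numbered 4727 in the main fit, 3607 without shCon replicate 2 and 4471 without shUBXN1 replicate 1. Under total count scaling 40 list genes were higher and 37 lower. Of 569 values of the 44 genes under alternatives, 539 kept their side of the threshold, 23 lost a call and 7 gained one, the gains being in PFN1, ACTG1, CFL1, ARPC2 and MSN. AVIL and TPM2 lost their calls in 5 settings each, CNN2 in 4, TAGLN2, TWF2 and FSCN1 in 2, and CARMIL2, CAP1 and SSH1 in 1. AVIL, TMOD2 and CARMIL2 had no value with at least 10 counts in every library. The cause of these changes was not tested.

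Same-numbered libraries deviated together at a correlation of only 0.0393 over genes. That value cannot tell whether the numbers mark shared cultures or batches, which the labels do not say. With the replicate block TMSB10 was at -3.64 and ACTB at -1.06, and 5023 genes were lower and 5000 higher, against 4751 and 4727. With 2 libraries per group, 1 library can decide small changes such as those of PFN1, ACTG1, CFL1 and TAGLN2.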
